A study of Mus musculus with 10 samples.

Results

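The genes of the cytosolic ribosome's proteins were followed in 10 tumours of CT26, a line of mouse colon carcinoma cells, implanted subcutaneously in BALB/c mice. Members were the rows of the deposited count table whose mouse gene has a protein-coding symbol beginning Rpl or Rps and a digit, or is Rplp0, Rplp1, Rplp2 or Rpsa, without the Rps6k kinases and symbols ending in -ps. They numbered 86 of the 21849 genes listed. One member, Rps19bp1, encodes a nucleolar protein that binds Rps19 and is no ribosomal protein, and it was kept because the symbol rule takes it in. In one group of 5 tumours the mice ate an arginine-deficient diet, arginine-free and of equal calories per the design text, and in the other 5 a normal diet. All were BALB/c mice aged 5 weeks at the start, put on their diet 1 week before the cells were implanted, and tumours were taken on day 20. The labels name the tissue only as tumour, so each library holds RNA of cancer cells, host cells and any tissue around them. All 8 colon carcinoma and epithelial markers had counts, summing to 91.2 to 234 CPM (counts scaled to the size of the library) in the arginine-deficient libraries and to 198 to 289 CPM in the normal-diet libraries. Most of that sum was Krt20 alone, at 83.0 to 215 CPM in the arginine-deficient and 186 to 264 CPM in the normal-diet libraries. Epcam, Cdx2 and Vil1 reached at most 0.873 CPM in any library, too few counts to be tested.

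Ribosomal proteins of the large subunit (Rpl) and of the small subunit (Rps) coat the ribosomal RNA and are built into the particle in the nucleolus, so cells make them in near equal amounts. Their mRNAs are among the most abundant in growing cells and in mammals start with a run of pyrimidines, the terminal oligopyrimidine or TOP motif, through which mTORC1 and Larp1 set their translation when amino acids such as arginine run short. That control acts mostly on translation, which counts of mRNA do not measure. Most of these genes have processed pseudogenes, intronless copies scattered over the genome, and a few have expressed paralogs.

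The start-site motif and the copies can be read from the sequences themselves. RefSeq windows (build GRCm38.p6) matched 66 of the 86 members. In 21 of the 66 (31.8%) an unbroken run of at least 8 pyrimidines (C or T, read on the gene's own strand) reached within 5 bases of the annotated start, against 1574 of 16496 protein-coding genes of the table (9.54%). For purine runs (A or G), the same motif on the other strand, the shares were 2 of 66 members (3.03%) and 10.5% of all. Among mitochondrial ribosomal proteins, whose ribosome is a separate one, 7 of 69 windows (10.1%) had a pyrimidine run. In a list of translation factors and other TOP mRNAs 5 of 16 windows (31.2%) had one, a share like that of the members. Among ribosome assembly factors 2 of 48 (4.17%) did. Windows of 40 bases, 20 before the annotated start and 20 from it, are shown for 4 members with a run (in capitals) and 2 without. They lie at chr9:64173367-64173406 (plus strand), chr14:18270967-18271006 (minus strand), chr7:45128726-45128765 (minus strand), chr4:86857348-86857387 (minus strand), chr5:115559447-115559486 (plus strand) and chr16:10170208-10170247 (plus strand).
Rpl4: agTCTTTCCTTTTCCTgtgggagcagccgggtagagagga
Rpl15: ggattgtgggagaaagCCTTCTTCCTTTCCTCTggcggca
Rpl13a: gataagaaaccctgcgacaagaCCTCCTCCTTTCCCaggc
Rps6: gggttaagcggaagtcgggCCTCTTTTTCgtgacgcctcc
Rplp0: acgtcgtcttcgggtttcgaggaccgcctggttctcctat
Rpl39l: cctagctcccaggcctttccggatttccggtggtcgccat
These RefSeq starts lie 12, 360, 16, 45, 0 and 0 bases from the starts of the GENCODE transcripts used here, in the order shown, and a window with no run says only that these letters are not there. A run counted here need not open the annotated mRNA: in Rpl4 it lies wholly before the RefSeq start and in Rpl13a wholly after it.

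Coding sequences from the GENCODE M21 transcripts (build mm10) show how far members can be told apart. Rps27 (chr3:90212522-90213651, minus strand) and Rps27rt (chr9:114982366-114982739, minus strand) share every coding base. Rps27l (chr9:66946086-66949516, plus strand), a paralog known as a target of p53, is 76.1% identical to Rps27 with 61 differing bases, and their longest identical run is 11 bases. Rpl39l (chr16:10170226-10174911, plus strand), a paralog of Rpl39 (chrX:37082520-37085402, minus strand) known for its part in the testis and in some cancers, differs at 23 of 156 bases. Capitals mark the bases that differ from the parent gene.
Rps27: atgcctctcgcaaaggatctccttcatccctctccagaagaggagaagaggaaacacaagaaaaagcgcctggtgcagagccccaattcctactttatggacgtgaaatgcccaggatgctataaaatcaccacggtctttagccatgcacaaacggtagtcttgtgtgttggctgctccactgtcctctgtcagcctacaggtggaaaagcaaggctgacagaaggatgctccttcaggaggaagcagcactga
Rps27l: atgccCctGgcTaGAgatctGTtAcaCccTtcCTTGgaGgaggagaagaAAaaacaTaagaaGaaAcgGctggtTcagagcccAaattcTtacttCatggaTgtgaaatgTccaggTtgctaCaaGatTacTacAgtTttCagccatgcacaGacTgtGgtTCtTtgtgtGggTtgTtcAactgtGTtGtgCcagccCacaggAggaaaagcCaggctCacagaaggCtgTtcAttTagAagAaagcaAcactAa
Rpl39: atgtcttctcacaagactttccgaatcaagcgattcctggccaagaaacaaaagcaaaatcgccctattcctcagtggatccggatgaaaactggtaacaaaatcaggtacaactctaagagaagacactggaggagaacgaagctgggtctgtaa
Rpl39l: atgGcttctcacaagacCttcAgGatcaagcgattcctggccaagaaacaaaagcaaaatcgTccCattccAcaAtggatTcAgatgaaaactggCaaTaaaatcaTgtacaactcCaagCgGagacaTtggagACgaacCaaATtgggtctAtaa
Rps27rt was listed at 0 in all 10 libraries, while Rps27, with the same coding letters, had 3540 counts in all.

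Library totals ran from 12013178 to 31530123 counts, the lowest being normal-diet replicate 5 and the highest arginine-deficient replicate 1. Of the 86 members, 77 had enough counts to be tested among 12929 genes. In these bulk samples fewer cells of a type and less RNA per cell cannot be told apart. Arginine-deficient replicates 3 and 4 and normal-diet replicate 4 held most skeletal muscle transcripts, 5156, 1415 and 495 CPM over 10 markers, against at most 68.0 CPM elsewhere, with Acta1 at 0 in all. Red cell markers summed to 55.9 to 106 CPM in the arginine-deficient and to 104 to 612 CPM in the normal-diet libraries, and were highest in normal-diet replicates 1 and 5. Leukocyte markers summed to 300.5 to 386 CPM in the arginine-deficient and to 269.6 to 457 CPM in the normal-diet libraries, and fibroblast markers to 2229 to 4048 CPM in the arginine-deficient and to 2723 to 3560 CPM in the normal-diet libraries. The part of these tissues in the results below was not tested, except where values without a library are given.

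No difference between the diets in a ribosomal protein mRNA was detected with 5 libraries per diet, which does not show that there is none. None of the 77 tested members passed the threshold of 0.05 on the adjusted p (edgeR quasi-likelihood test), where 0.0541% of all genes were called higher and 0% lower. None had an unadjusted p under 0.05 either, which 6.74% of all genes had (3.54% higher and 3.19% lower), and DESeq2 and limma voom called no member. For no member did the 2 diets' libraries separate fully, as they did for 1.65% of all genes (0.835% higher and 0.812% lower). The log2 fold changes, arginine-deficient over normal, ran from -0.58 (Rps19) to 0.42 (Rps3a1, named as the upper end), 34 positive and 43 negative, with a median of -0.046 against 0.0012 over all genes.

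What differed was the library. Members together took 2.27%, 1.68%, 1.45%, 1.60% and 1.40% of the counts in arginine-deficient replicates 1 to 5, and 1.56%, 1.35%, 1.497%, 1.49% and 3.02% in normal-diet replicates 1 to 5. Normal-diet replicate 5 and, less so, arginine-deficient replicate 1 stood above the other 8, and those 8 overlapped between the diets. Mitochondrial genes took the smallest share of counts in the same libraries, 1.67% in arginine-deficient replicate 1 and 1.72% in normal-diet replicate 5, against 2.27% to 9.97% in the other 8. Log2 CPM relative to each gene's mean changed by -0.11 per doubling of transcript length in normal-diet replicate 5, against -0.038 to 0.039 in the other 9, and the part of either in the members' levels was not tested. On the scale of CPM with TMM factors (edgeR's scaling between libraries) the members summed to 22722, 17385, 15237, 15781 and 14068 CPM in the arginine-deficient libraries, against 15342, 13110, 14597, 14838 and 30530 CPM in the normal-diet libraries. Normal-diet replicate 5 had the highest level of 62 of the 77 members and arginine-deficient replicate 1 that of 13. Arginine-deficient replicate 5 was lowest for 32, normal-diet replicate 3 for 15 and arginine-deficient replicate 3 for 11. Gapdh, the glycolytic enzyme, was also highest in arginine-deficient replicate 1 and normal-diet replicate 5. It stood at 155, 68.6, 115, 57.9 and 61.9 CPM in the arginine-deficient libraries and at 51.1, 59.6, 55.6, 60.1 and 137 CPM in the normal-diet libraries, and its part was not tested. In arginine-deficient replicate 3 Gapdh was high (115 CPM) while the members' sum (15237 CPM) was not.

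**Figure D1:**
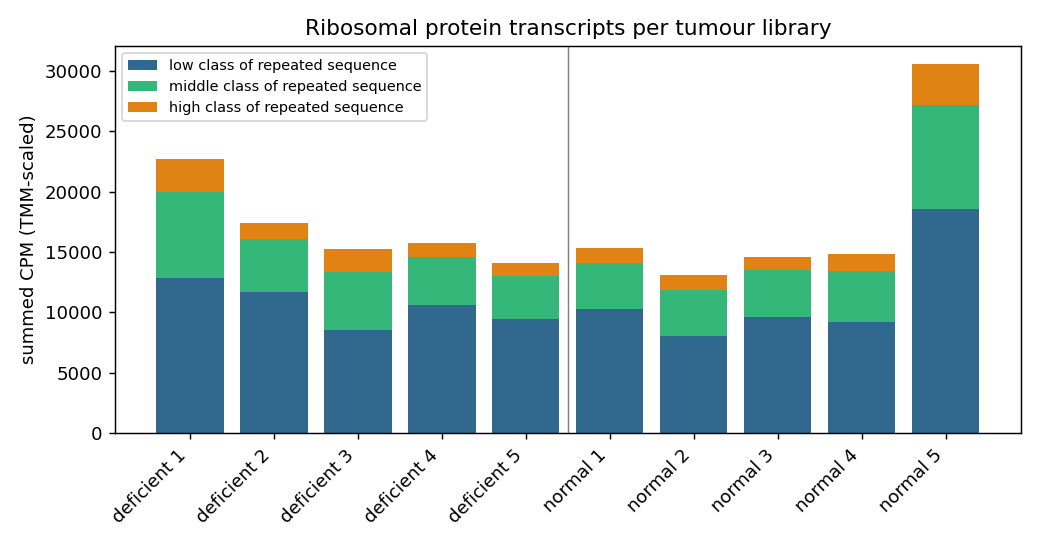
Summed level of the ribosomal protein genes (CPM with TMM factors) in each tumour library, 5 arginine-deficient left of 5 normal-diet, with 1 bar per library. Bars are stacked by how much of a gene's transcript is repeated at other loci, and the bars of arginine-deficient replicate 1 (22722 CPM) and normal-diet replicate 5 (30530 CPM) are the tallest of their diets.

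The sign of the comparison depended on which libraries were in it. Without these 2, a choice made after seeing the data, the log2 fold change was above 0 for 65 of 78 tested members. Its median was then 0.19, against 0.013 over all genes, and 4 of the 78 had an unadjusted p under 0.05, all higher (3.32% of all genes in that direction), Rpl12, Rplp0 and Rpl3l (named after its values were seen) among them. Rpl3l is the muscle paralog of Rpl3, and its highest libraries, all kept in this fit, were those with most muscle markers. Leaving out normal-diet replicate 5 alone gave 73 of 78 positive with a median of 0.42 and 9 with an unadjusted p under 0.05, all higher, where 3.79% of all genes in that fit were higher at that p and 7.55% either way. Leaving out arginine-deficient replicate 1 alone gave 11 of 78 positive with a median of -0.25. Leaving out arginine-deficient replicate 2, 4 or 5 moved the median only to 0.038, 0.044 and 0.089, which also turns its sign. No member was called in any of these fits, the smallest adjusted p being 0.359, reached by Rpl12 without normal-diet replicate 5.

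**Figure D2:**
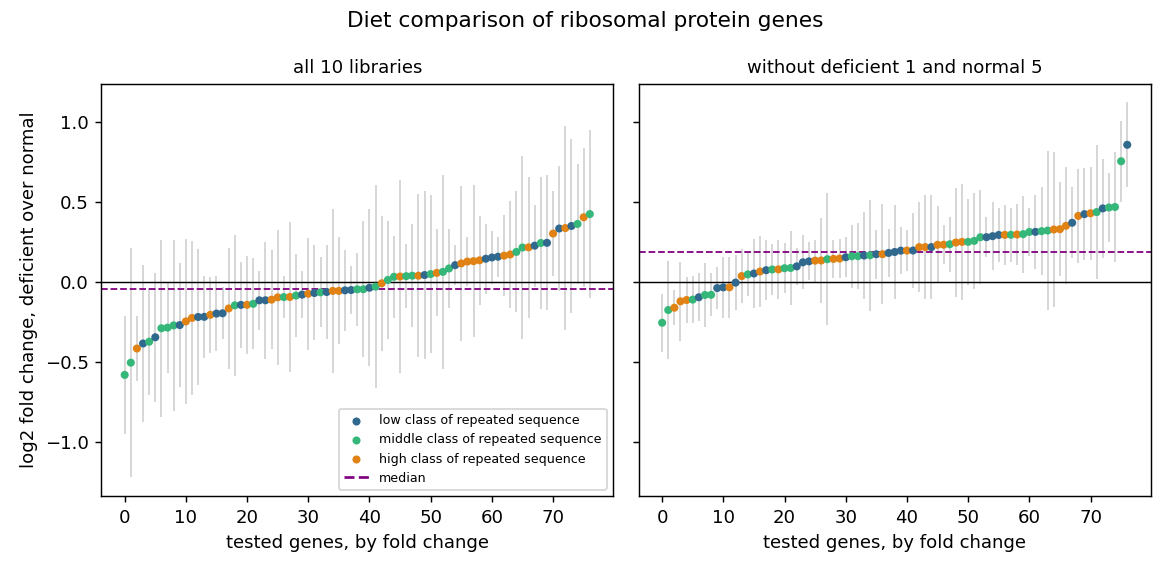
Log2 fold change of each tested gene, arginine-deficient over normal diet, sorted by size, with bars of 1 SE from edgeR and colours for the class of repeated sequence. With all 10 libraries the median (dashed) is -0.046, and without arginine-deficient replicate 1 and normal-diet replicate 5 most points lie above 0 (Rpl3l, tested only there, is left out of the panel).

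Of the 8 members of smallest p, 7 are given here, 3 of them with the paralogs. Rpl15, a large-subunit protein, stood at 95.1, 88.5, 103, 86.1 and 85.4 CPM in arginine-deficient replicates 1 to 5, against 97.03, 108, 91.8, 109 and 207 CPM in normal-diet replicates 1 to 5 (log2 fold change -0.42, SE 0.20, adjusted p = 0.766). Normal-diet replicate 5 lay apart at the top, and the other 9 libraries overlapped. Rps19, the small-subunit protein most often mutated in Diamond-Blackfan anaemia, stood at 105, 78.7, 49.3, 64.5 and 45.1 CPM in the arginine-deficient libraries, against 65.5, 67.4, 66.1, 83.8 and 230.5 CPM in the normal-diet libraries (log2 fold change -0.58, SE 0.37, adjusted p = 0.89). Here too normal-diet replicate 5 was highest, followed by arginine-deficient replicate 1. Without normal-diet replicate 5 the log2 fold change of Rps19 was -0.043 and that of Rpl15 -0.14.

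Rpl3, which helps shape the peptidyl transferase centre, stood at 204, 97.4, 103, 75.7 and 79.2 CPM in the arginine-deficient and at 85.9, 80.3, 70.2, 86.3 and 131 CPM in the normal-diet libraries (log2 fold change 0.30, SE 0.27, adjusted p = 0.962). Its highest library was arginine-deficient replicate 1, and the other 4 of that diet fell within the range of the normal-diet libraries. Rpl12, part of the stalk base, stood at 106, 97.7, 50.3, 78.7 and 61.4 CPM in the arginine-deficient and at 61.4, 30.8, 38.96, 39.5 and 137 CPM in the normal-diet libraries (log2 fold change 0.36, SE 0.38, adjusted p = 0.975). Normal-diet replicate 5 was the highest for Rpl12 and normal-diet replicates 2 to 4 the lowest. Without normal-diet replicate 5 its log2 fold change was 0.89 (SE 0.26) and without both outlying libraries 0.75 (SE 0.25, adjusted p = 0.552), still not called.

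Per kilobase of transcript the 6 highest included Rpl8 (1609), Rpl4 (1470.2), Rplp1 (1324), Rpl32 (1294) and Rpl41 (1158), all in mean CPM per kilobase. Rpl8, which lies near the peptidyl transferase centre, stood at 1389, 1756, 717, 1468 and 1351 CPM in the arginine-deficient and at 1605, 808, 1247, 982 and 2367 CPM in the normal-diet libraries (log2 fold change -0.069, SE 0.30, adjusted p = 0.998). For Rpl8, arginine-deficient replicate 3 was the lowest, normal-diet replicate 2 the next lowest, and normal-diet replicate 5 the highest, so each diet held high and low tumours. Rpl4, lining the peptide exit tunnel, stood at 2619, 2403, 1763, 2037 and 2176 CPM in the arginine-deficient and at 2425, 1947, 2302, 2256 and 2685 CPM in the normal-diet libraries (log2 fold change -0.079, SE 0.15, adjusted p = 0.998). Normal-diet replicate 5 and arginine-deficient replicate 1 were again its highest, and arginine-deficient replicate 3 its lowest. Rpl32 and Rpl41, both large-subunit proteins and Rpl41 the smallest of them, ran from 444 to 748 CPM and 372 to 847 CPM in the arginine-deficient libraries and from 492 to 1204 CPM and 432 to 1506 CPM in the normal-diet libraries. Their log2 fold changes were -0.20 and -0.11, and normal-diet replicate 5 was again the highest of both.

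The stalk, the acidic arm that recruits translation factors, is made of Rplp0, Rplp1 and Rplp2. Rplp0 stood at 1091, 599.9, 683, 647 and 498 CPM in the arginine-deficient libraries, against 461, 516, 491, 525 and 1015 CPM in the normal-diet libraries (log2 fold change 0.23, SE 0.26, adjusted p = 0.978). Rplp1 stood at 1055, 599, 642, 613 and 408 CPM in the arginine-deficient libraries, against 434, 452, 425, 505 and 1473 CPM in the normal-diet libraries (log2 fold change 0.013, SE 0.37, adjusted p = 0.999). Rplp2 stood at 286, 226, 178, 185 and 136 CPM in the arginine-deficient libraries, against 171, 143, 156, 170.1 and 644 CPM in the normal-diet libraries (log2 fold change -0.35, SE 0.40, adjusted p = 0.982). The 3 shared their high libraries, with arginine-deficient replicate 1 on top for Rplp0 and normal-diet replicate 5 on top for Rplp1 and Rplp2. Without those 2 libraries Rplp0 had a log2 fold change of 0.28 (SE 0.12, adjusted p = 0.714) and Rplp1 one of 0.31 (SE 0.15, adjusted p = 0.747).

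Rpl5 and Rpl11 form the 5S ribonucleoprotein particle that also binds Mdm2 when ribosome assembly falters. Rpl5 ran from 46.7 to 139 CPM in the arginine-deficient and from 43.2 to 133 CPM in the normal-diet libraries (log2 fold change 0.19, SE 0.38, adjusted p = 0.998). Rpl11 ran from 14.6 to 58.5 CPM in the arginine-deficient and from 18.5 to 81.8 CPM in the normal-diet libraries (log2 fold change -0.22, SE 0.48, adjusted p = 0.998). In both, arginine-deficient replicate 1 and normal-diet replicate 5 were the 2 highest, and for Rpl5 arginine-deficient replicate 3 (107.6 CPM) came close to them. Rps6, the substrate of the S6 kinases, ran from 109 to 220.2 CPM in the arginine-deficient and from 135 to 297 CPM in the normal-diet libraries (log2 fold change -0.20, SE 0.24, adjusted p = 0.982). Rps27a, made as a fusion with ubiquitin, ran from 14.9 to 44.0 CPM in the arginine-deficient and from 16.9 to 69.8 CPM in the normal-diet libraries (log2 fold change -0.096, SE 0.42, adjusted p = 0.998). Rpsa, which is also the laminin receptor, ran from 365 to 913 CPM in the arginine-deficient and from 420.2 to 752 CPM in the normal-diet libraries (log2 fold change 0.032, SE 0.26, adjusted p = 0.998). These 3 kept to the common pattern, with arginine-deficient replicate 1 and normal-diet replicate 5 as their 2 highest libraries except Rps27a, where arginine-deficient replicate 3 came second. Rpl13a, which in mammals can leave the ribosome to silence inflammatory mRNAs, had the narrowest range of these, from 40.2 to 47.8 CPM in the arginine-deficient and from 33.3 to 49.96 CPM in the normal-diet libraries (log2 fold change 0.10, SE 0.13, adjusted p = 0.984). Of the exonic bases of Rpl13a, 82.8% lie within the bounds of other genes, and the part of that overlap in its level and range was not tested. Rpl10, which completes the peptidyl transferase centre, and Rps4x, the X-linked small-subunit protein, ran from 51.9 to 94.7 and 391 to 788 CPM in the arginine-deficient and from 44.6 to 106 and 463 to 811 CPM in the normal-diet libraries. Rpl36a, a large-subunit protein, ran from 8.65 to 39.7 CPM in the arginine-deficient and from 10.6 to 55.5 CPM in the normal-diet libraries.

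Of the paralogs, Rpl39l had a mean level of 132 CPM per kilobase, above the 95.2 CPM per kilobase of Rpl39, and varied less over libraries. It stood at 105, 99.03, 101, 113 and 90.4 CPM in the arginine-deficient libraries, against 105, 83.2, 94.3, 94.3 and 175 CPM in the normal-diet libraries (log2 fold change -0.11, SE 0.18, adjusted p = 0.998). Rpl39 stood at 82.4, 38.8, 74.7, 41.1 and 31.7 CPM in the arginine-deficient libraries, against 30.1, 48.6, 34.6, 52.4 and 148 CPM in the normal-diet libraries (log2 fold change -0.22, SE 0.43, adjusted p = 0.998). The ratio of Rpl39l to Rpl39 per kilobase was lowest in arginine-deficient replicates 1 (0.969) and 3 (1.03) and normal-diet replicate 5 (0.897), and at least 1.30 in the other 7 libraries. That ratio averaged 1.64 ± 0.59 in the arginine-deficient and 1.66 ± 0.70 in the normal-diet libraries (SD, n = 5 each).

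Rps27l, the p53 target, was also counted above its parent, at 117 CPM per kilobase against 48.0 for Rps27. Of the 100-base windows of the Rps27 transcript, 98.4% also occur at another locus, against 0% for Rps27l. How reads with several matches were counted is not given, so the counts do not settle which mRNA is more abundant. Rps27l stood at 51.1, 49.7, 67.5, 62.8 and 54.5 CPM in the arginine-deficient libraries, against 57.5, 52.3, 52.0, 52.1 and 82.2 CPM in the normal-diet libraries (log2 fold change -0.050, SE 0.15, adjusted p = 0.998). Rps27 stood at 35.2, 10.4, 21.2, 9.76 and 6.78 CPM in the arginine-deficient libraries, against 9.50, 11.2, 9.41, 12.5 and 39.6 CPM in the normal-diet libraries (log2 fold change 0.039, SE 0.51, adjusted p = 0.998). Rps27 had its highest values in arginine-deficient replicate 1 and normal-diet replicate 5, and their ratio per kilobase, lowest in those same libraries, ran from 1.003 to 5.56 in the arginine-deficient and from 1.43 to 4.19 in the normal-diet libraries. Rpl22l1, a paralog of Rpl22 that can stand in for it, was counted far below its parent, at 30.0 CPM per kilobase against 444 for Rpl22. Here the paralog has the repeated windows, 40.6% against 0% for Rpl22, and their part in the levels was not tested. Rpl22l1 stood at 16.3, 16.5, 16.0, 14.2 and 11.4 CPM in the arginine-deficient libraries, against 14.7, 13.0, 13.0, 13.9 and 36.7 CPM in the normal-diet libraries (log2 fold change -0.28, SE 0.29, adjusted p = 0.974). Rpl22 stood at 202, 229, 167, 203 and 179 CPM in the arginine-deficient libraries, against 207, 174, 204, 213 and 326 CPM in the normal-diet libraries (log2 fold change -0.20, SE 0.16, adjusted p = 0.952).

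Rpl7l1, a relative of Rpl7 known from ribosome assembly, and Rpl7 itself hardly followed the other members. The exons of Rpl7l1 lie wholly within the bounds of other genes, and the part of that overlap in its values was not tested. Rpl7l1 stood at 115, 110.4, 87.7, 123 and 138 CPM in the arginine-deficient libraries, against 111, 92.9, 97.5, 98.9 and 115 CPM in the normal-diet libraries (log2 fold change 0.16, SE 0.13, adjusted p = 0.948). Rpl7 stood at 779.3, 759, 522, 657 and 751 CPM in the arginine-deficient libraries, against 744, 647, 759, 747 and 806 CPM in the normal-diet libraries (log2 fold change -0.094, SE 0.13, adjusted p = 0.998). The correlation of each with the mean of the members over the 10 libraries (genes of a library share its depth) was 0.020 for Rpl7l1 and 0.15 for Rpl7. Their ratio per kilobase averaged 0.0743 ± 0.0088 in the arginine-deficient and 0.0621 ± 0.0037 in the normal-diet libraries (SD, n = 5 each). An exact two-sided permutation test over libraries gave p = 0.0238, or 0.0952 adjusted over the 4 paralog ratios, so the difference did not pass, and the other 3 ratios had p of 0.944 to 1.

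**Figure D3:**
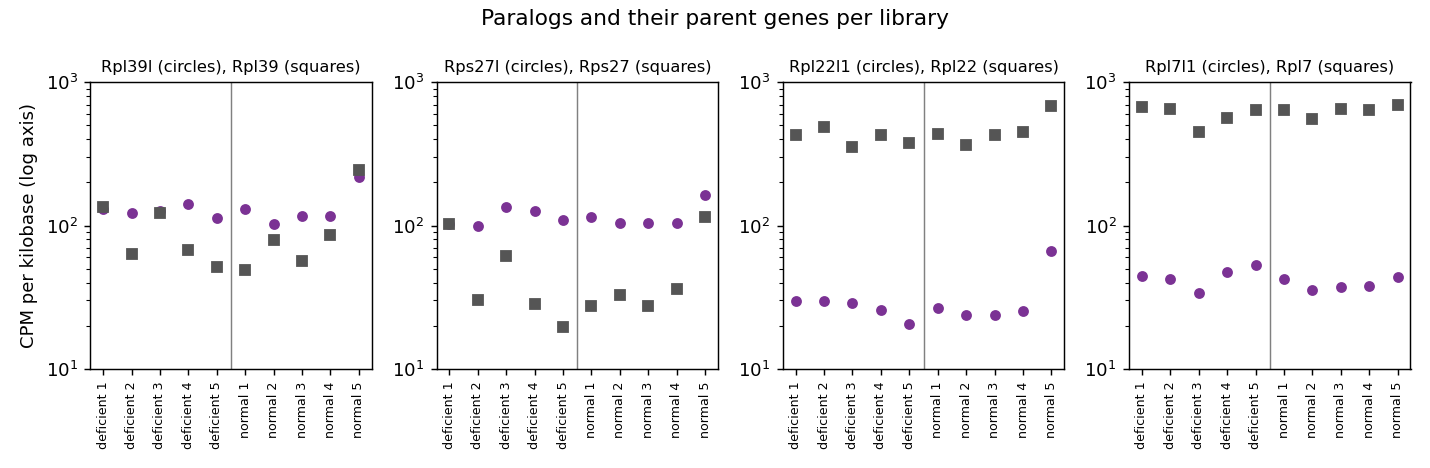
Level of 4 paralogs (circles) and their parent genes (squares) in CPM per kilobase on a log axis, 5 arginine-deficient libraries left of 5 normal-diet libraries. Rps27 and Rpl39 are high in arginine-deficient replicates 1 and 3 and normal-diet replicate 5, while Rpl39l and Rps27l vary less.

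Across all 77 tested members the libraries moved them together. The first principal component of their centred log2 CPM held 84.9% of the variance and the second 8.90%, and the median correlation of the 2926 pairs over 10 libraries was 0.80. In arginine-deficient replicate 1, 72 of the 77 lay above their own mean over libraries, in arginine-deficient replicate 3, 57, and in normal-diet replicate 5, all 77. In the other 7 libraries 3 to 26 did. Rps20, picked after its values were seen, broke the pattern in normal-diet replicate 1, at 108 CPM against 232 to 653 CPM in the other 9. Of the non-members averaging at least 10 CPM, those most like the member mean by Pearson correlation over the 10 libraries were Gm8797 (0.992), Wrap53 (0.987), Atp5h (0.976), Pdcd5 (0.975) and Fau (0.970).

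How strongly a member moved varied with how much of its sequence is repeated elsewhere in the genome. For each member the share of 100-base windows of its transcript found unaltered in a transcript of a gene at another locus was taken, a measure chosen after the pattern among libraries was seen. Such windows occurred in 76 of the 86 members and in 474 other genes, 458 of them pseudogenes, and none of the 458 was a row of the count table. The tested members were put in 3 classes, low (25 members, 0% to 23.3% of windows), middle (26, 24.1% to 50.1%) and high (26, 52.5% to 98.4%). The median level was 236 CPM per kilobase in the low class, 70.1 in the middle and 53.8 in the high class. The 5 most abundant members named above lay at or below 30.0%.

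The median log2 level relative to each gene's own mean rose over the classes in the 2 outlying libraries. In arginine-deficient replicate 1 it was 0.28 in the low, 0.80 in the middle and 0.98 in the high class, and in normal-diet replicate 5 it was 0.95, 1.17 and 1.26 in the same order. The 8 members with no repeated window, Rpl22, Rpl32 and Rpl39l among them, had a median of 0.027 in arginine-deficient replicate 1 and of 0.78 in normal-diet replicate 5. These 8 are not free of shorter repeats: 5 of them share 50-base windows with another locus, Rpl32 in 28.4% and Rps21 in 26.4% of its windows, and Rps21 (named after its values were seen) stood at 0.92 in arginine-deficient replicate 1. Rps19bp1, no ribosomal protein, is also among the 8. In arginine-deficient replicate 3 the class medians were -0.038, 0.43 and 0.39, and in arginine-deficient replicate 5 they were -0.20, -0.54 and -0.71. The median log2 fold change between the diets was -0.063, -0.037 and 0.013 from the low to the high class.

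**Figure D4:**
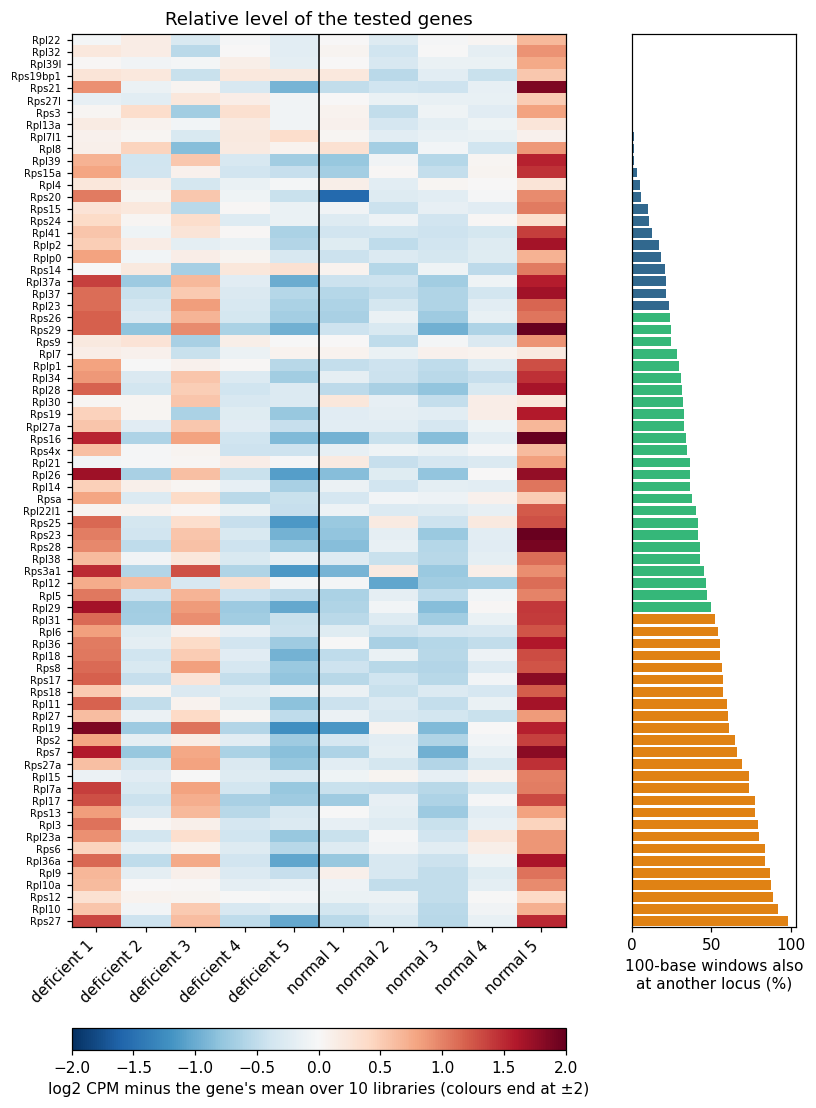
Log2 CPM of 74 of the 77 tested genes minus each one's mean over the 10 libraries (colour), 5 arginine-deficient columns left of 5 normal-diet columns, beside the share of the gene's 100-base windows also found at another locus (bars). Rows run from genes with no repeated window at the top to Rps27 (98.4%) at the bottom, and the columns of arginine-deficient replicate 1 and normal-diet replicate 5 are the reddest.

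Other genes with copies give a scale for these values. Of the 116 non-members averaging at least 10 CPM with over 50% of windows repeated, the median relative log2 level was 0.018 in arginine-deficient replicate 1 and 0.13 in normal-diet replicate 5, against 0.32 in arginine-deficient replicate 3. Members over 50% stood at 1.04, 1.27 and 0.40 in the same 3 libraries. Members are also short, with a median transcript of 774 bases. The 481 non-members under 1000 bases had a median relative log2 level of -0.045 in arginine-deficient replicate 1 and of 0.51 in normal-diet replicate 5, where members stood at 0.79 and 1.12. Whether reads from the copies, transcript length or the cells of the tumours bear on the 2 libraries was not tested.

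**Figure D5:**
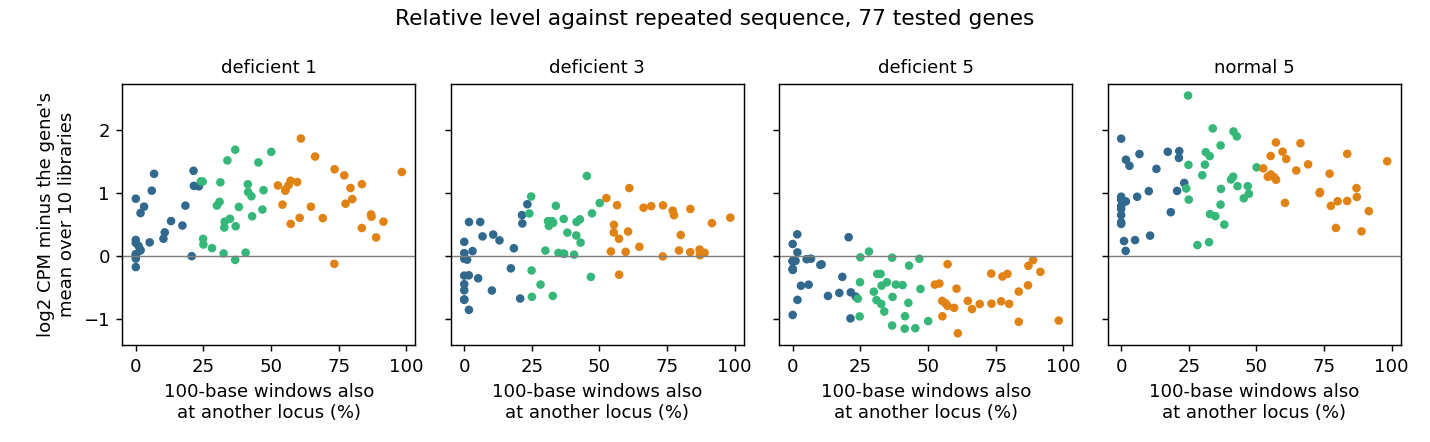
Log2 CPM minus the gene's mean over 10 libraries against the percentage of its 100-base windows also found at another locus, for the 77 tested genes in 4 libraries, coloured by class. In arginine-deficient replicate 1 the class medians run 0.28, 0.80 and 0.98 from low to high, and in normal-diet replicate 5 they run 0.95, 1.17 and 1.26.

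Of the 86 members 9 were not tested. Rpl13, Rpl35, Rpl35a and Rps27rt were listed at 0 in every library, and their exons lie wholly within the bounds of other genes, so a 0 here does not show that they are not expressed. Such overlap did not always go with a 0, as Rpl7l1, also wholly within other genes, had 22281 counts in all. Rpl24, Rps10 and Rpl36al had 1, 4 and 26 counts in all, and the share of their exonic bases within other genes was 93.4%, 94.8% and 92.4%. Rpl10l, a testis paralog of Rpl10 with no such overlap, had 4 counts. Rpl3l, the muscle paralog of Rpl3, had 600 counts, at 0.127, 0.0579, 15.8, 3.90 and 0.0717 CPM in the arginine-deficient libraries and 0.11, 0.241, 0.524, 1.44 and 0.0832 CPM in the normal-diet libraries. Its 3 highest libraries were the 3 with most muscle markers, in the same order. These members other than the 4 at 0 are named after their values were seen.

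The other genes of the pathway were taken from lists of the ribosome's makers and regulators. Of the ribosome assembly factors, 48 of 56 tested had a log2 fold change above 0, where 50.3% of all genes did, and the median was 0.14. None passed the adjusted threshold, and 11 had an unadjusted p under 0.05, all higher, a share that was 3.54% over all genes in that direction. In 6 of the 56 every arginine-deficient library lay above every normal-diet library, as in 0.835% of all genes. The median relative log2 level of the list was 0.12, 0.072, -0.17, 0.12 and 0.21 in arginine-deficient replicates 1 to 5. In normal-diet replicates 1 to 5 it was 0.057, -0.21, -0.17, -0.12 and -0.036, so the diets overlapped through arginine-deficient replicate 3. Mphosph10, of the small-subunit processome, averaged 82.9 ± 7.12 CPM in the arginine-deficient and 60.6 ± 8.68 CPM in the normal-diet libraries (SD, n = 5 each, log2 fold change 0.45, SE 0.12, edgeR adjusted p = 0.337). Sdad1, needed for large-subunit export, averaged 73.0 ± 2.87 CPM in the arginine-deficient and 57.4 ± 4.11 CPM in the normal-diet libraries (log2 fold change 0.35, SE 0.093, adjusted p = 0.337). Ncl, nucleolin, averaged 1721 ± 94.8 CPM in the arginine-deficient and 1318 ± 53.2 CPM in the normal-diet libraries (log2 fold change 0.39, SE 0.11, adjusted p = 0.358). For these 3 the 2 diets' libraries did not overlap. Without arginine-deficient replicate 1 and normal-diet replicate 5, 49 of 56 were positive with a median of 0.20, and 8 had an unadjusted p under 0.05, all higher, against 3.32% of all genes. Without the 3 libraries richest in muscle, 48 were positive with a median of 0.19, and 16 had an unadjusted p under 0.05, all higher, against 4.86% of all genes. DESeq2 called 4 of the 56, limma voom 7 and the fit with GC and length slopes 2, where these fits called 0.999%, 2.88% and 1.11% of all genes.

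In the remaining lists edgeR and DESeq2 called no gene, and limma voom, which called 2.88% of all genes, called 1 of 18 genes of mTORC1 control and 1 of 12 of ribosome rescue. Of 15 tested genes of rRNA transcription by Pol I, 11 were positive (median 0.12), the smallest p belonging to Polr1e (log2 fold change 0.29, SE 0.12), Polr1d (-0.36, SE 0.18) and Taf1d (0.49, SE 0.24), at adjusted p of 0.700, 0.770 and 0.772. Of 23 translation factors and other TOP mRNAs, 14 were positive (median 0.050), led by Cct4 (0.14, SE 0.098), Eif3a (0.14, SE 0.10) and Pabpc1 (0.18, SE 0.14), at adjusted p of 0.936 to 0.944. Of 18 genes of mTORC1 and Larp1 control, 12 were positive (median 0.064), led by Myc (0.45, SE 0.16), Larp1 (0.20, SE 0.12) and Deptor (0.43, SE 0.32), at adjusted p of 0.579, 0.856 and 0.939. Myc, a transcription factor that drives ribosome production, stood at 250.01, 262, 151, 189 and 269 CPM in the arginine-deficient libraries, against 200.4, 146, 164, 169 and 165 CPM in the normal-diet libraries, overlapping through arginine-deficient replicates 3 and 4 and normal-diet replicate 1. Of 12 ribosome rescue genes, 10 were positive (median 0.11), led by Eef2k (0.41, SE 0.19), Serbp1 (0.23, SE 0.12) and Map3k20 (0.33, SE 0.18), at adjusted p of 0.748 to 0.837. Mitochondrial ribosomal proteins, 72 tested, were split 34 positive to 38 negative (median -0.018), led by Mrps18b (0.30, SE 0.12), Mrpl43 (0.35, SE 0.18) and Mrps31 (0.23, SE 0.12), at adjusted p of 0.651 to 0.820. Their median relative log2 level was -0.013 in arginine-deficient replicate 1 and 0.32 in normal-diet replicate 5, against 0.79 and 1.12 for the cytosolic members. Their split also depended on the libraries. Without normal-diet replicate 5, 59 of the 72 were positive (median 0.079), and without it and arginine-deficient replicate 1, 59 (median 0.098). Without normal-diet replicate 3, 24 were positive (median -0.040). Of the ribosome's partners outside the symbol rule, Rack1, the scaffold on the small subunit, gave -0.097 on the log2 scale (SE 0.21) and Fau, the source of a small-subunit protein, gave 0.12 (SE 0.42), neither past the threshold (adjusted p = 0.998 for both).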

How the data were processed

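Total RNA of 10 tumours was extracted with TRIzol and sequenced on Illumina platforms, per the labels' protocols. The authors deposited raw counts per gene, 1 column per library, with no normalization. Per the submitters' processing notes, the tools were FastQC, STAR and featureCounts and the build mm10. Versions, strand and the treatment of reads with several matches: not given in the sources used here. Columns were matched by the library number in each sample's description. Symbols came from GENCODE M21, which held 21379 of the 21849 identifiers in the same version and 437 in a different one, leaving 33 without a symbol.

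The members and lists were chosen with earlier results of these data known. The whole table was fitted with edgeR 4.0.16 (R 4.3.3), with a quasi-likelihood F test, TMM factors, filterByExpr at its defaults and diet as the only term. Adjusted p-values are Benjamini-Hochberg over 12929 genes, the biological coefficient of variation was 26.5%, and SE was taken as the size of the log2 fold change divided by the root of F. CPM of tested genes carry TMM factors, while those of markers, Gapdh, Myc and untested genes do not. Log2 CPM used a prior count of 2. The step was checked on simulated counts. Levels per kilobase use 1 coding transcript per gene (best APPRIS, basic, best support, then shortest) and depend on that choice. The same transcript gave the window shares. All transcripts and then the longest principal one had been tried first, and the rule was changed because some were far longer than the mRNA, after the pattern among libraries had been seen.

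Named were the 8 members of smallest p, 6 of highest level per kilobase, tested paralogs with their parents, 10 members picked for their role, the 3 genes of smallest p of each other list and the 5 genes most like the member mean. Values of 4 genes are not reported here, while counts and medians over the members include those tested. Alternatives were other size factors (DESeq2's, upper quartile, TMM without the members), no filter or a stricter one (5 libraries with at least 1 CPM), limma 3.58.1 voom with sample weights, DESeq2 1.42.0, a replicate block, GC and length slopes per library as covariates, each library left out, the 3 muscle-rich libraries left out and, added after the data were seen, arginine-deficient replicate 1 and normal-diet replicate 5 left out. Every pair of libraries differed beyond sampling noise (lowest chi-square per degree of freedom 17.6). Mice were assigned at random by weight, so libraries were taken as separate animals, though the labels do not say so of each.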

Additional observations from a re-analysis of the deposited data

Results flagged for a closer look

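Normal-diet replicate 5 stood far from the other 4 libraries of its diet by Dixon's test at the 95% level, with a critical value of 0.71 for 5 libraries. The members' summed level was 30530.2 CPM there and at most 15342 CPM in the other normal-diet libraries. Single members set apart in the same library were Rpl15 (207 CPM, with the next at 109), Rps19 (230.5 CPM, with the next at 83.8), Rpl22l1 (36.7 CPM, with the next at 14.7), Rplp1 (1473 CPM, with the next at 505), Rpl41 (1506 CPM, with the next at 451), Rps27l (82.2 CPM, with the next at 57.5), Rps27 (39.6 CPM, with the next at 12.5), Rpl36a (55.5 CPM, with the next at 16.8), Rps4x (811 CPM, with the next at 510.4), Rplp0 (1015 CPM, with the next at 525), Rplp2 (644 CPM, with the next at 171), Rpl11 (81.8 CPM, with the next at 23.6) and Rps27a (69.8 CPM, with the next at 21.8). In all, 58 groups were checked, and chance alone sets apart about 1 in 20, but the members move together and are not independent. Over the 77 tested members the same test set apart 40 in normal-diet replicate 5, all high, 1 high in arginine-deficient replicate 1 and 1 low in arginine-deficient replicate 3. Normal-diet replicate 5 also had the smallest total of the 10 libraries (12013178 counts) and the highest slope of log2 CPM (relative to each gene's mean) on transcript GC content, 0.36 per 10 percentage points, against -0.52 to 0.17 in the others, and their part in these values was not tested.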

How the results depend on the processing

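No ribosomal protein gene was called under any of the 21 alternatives run. The median log2 fold change of the members ran from -0.25 to 0.42 when each library was left out in turn, and the log2 ratio of their summed levels, -0.054 with all libraries, from -0.18 to 0.24. Without arginine-deficient replicate 1 and normal-diet replicate 5 that ratio was 0.11. It was -0.056 with TMM factors computed without the members, -0.087 with CPM alone and -0.027 without the 3 muscle-rich libraries. The member median was 0.18 with limma voom, 0.22 with GC and length slopes as covariates and 0.19 without arginine-deficient replicate 1 and normal-diet replicate 5, and 63, 63 and 65 members were then positive. The smallest adjusted p of any member in any of these fits was 0.0532, for Rpl12 in limma voom. Over all genes, 7 were called by edgeR, and 129 by DESeq2, 373 by limma voom, 143 with the covariates, 18 without the 3 muscle-rich libraries, 0 without arginine-deficient replicate 1 and normal-diet replicate 5 (6.98% at an unadjusted p under 0.05) and 0 to 16 with 1 library left out. The cause was not tested. Replicate numbers are shared by the diets, but same-numbered libraries did not deviate together: the 5 correlations were 0.13, -0.35, -0.0061, 0.13 and 0.18, and among the arginine-deficient libraries only replicate 5 correlated best with its own number. With the replicate block 1 gene and no member was called, with a member median of 0.056.

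Of the named members, none of which was called, the sign of the log2 fold change turned as follows. It turned with upper-quartile factors for Rplp1 (-0.0058), and with the replicate block for Rpl41 (0.10), Rpl36a (0.061), Rps27a (0.056) and Rpsa (-0.041). With limma voom it turned for Rpl22l1 (0.020), Rpl8 (0.22), Rpl41 (0.12), Rps27l (0.045), Rpl36a (0.042), Rpl39l (0.041), Rpl39 (0.099), Rplp2 (0.091), Rpl11 (0.081), Rps27a (0.14) and Rpsa (-0.17). With the covariates it turned for Rpl8 (0.0086), Rpl41 (0.23), Rps27l (0.042), Rpl36a (0.35), Rpl39l (0.0071), Rpl39 (0.13), Rps4x (0.016), Rplp2 (0.054), Rpl11 (0.15) and Rps27a (0.31). Without the 3 muscle-rich libraries it turned for Rpl4 (0.040), Rplp1 (-0.013), Rpl7 (0.051) and Rps4x (0.019). Without arginine-deficient replicate 1 and normal-diet replicate 5 it turned for Rpl22l1 (0.086), Rpl8 (0.19), Rpl41 (0.29), Rps27l (0.13), Rpl36a (0.25), Rpl39l (0.097), Rpl39 (0.16), Rplp2 (0.17), Rps27a (0.33) and Rpsa (-0.081). With 1 library left out in turn, the log2 fold change ran from -0.039 to 0.47 for Rpl3, from -0.39 to 0.13 for Rpl22l1, from -0.21 to 0.20 for Rpl8, from -0.22 to 0.55 for Rplp1, from -0.31 to 0.074 for Rpl32, from -0.27 to 0.45 for Rpl41, from -0.11 to 0.094 for Rps27l, from -0.45 to 0.65 for Rps27, from -0.43 to 0.62 for Rpl36a, from -0.20 to 0.11 for Rpl39l, from -0.43 to 0.38 for Rpl39, from -0.26 to 0.12 for Rps4x, from -0.51 to 0.34 for Rplp2, from -0.13 to 0.56 for Rpl5, from -0.70 to 0.44 for Rpl11, from -0.37 to 0.051 for Rps6, from -0.32 to 0.49 for Rps27a and from -0.22 to 0.17 for Rpsa.

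Values of members at a few counts are too low to compare the diets, and the part of depth or of overlap with other genes in them was not tested. Counts near repeated sequence depend on how reads with several matches were treated, which the sources used here do not give.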
